A study of Homo sapiens with 24 samples.

Results

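Conditioned medium was compared with unconditioned medium in feeder-free cultures of HSF1, a human embryonic stem cell line. The samples were taken by their titles, which gave 6 of the 24 arrays of the series, 3 for each medium, and the comparison is described across all annotated genes. The series addressed whether mouse embryonic fibroblasts (MEFs), the usual feeder cells, alter the metabolism of human pluripotent cells through what they secrete. Its other arrays hold the same medium comparison in the line H9, and feeder-supported and feeder-free cultures of 3 lines given DMSO or an inhibitor of lactate transport.

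Both HSF1 groups grew without feeder cells. The control group had unconditioned medium and the other group had medium conditioned by MEFs, with no further agent named for either. The time in conditioned medium is uncertain, since it is 5 days in the labels and 24 hours in the design text. The sources used here do not give the base medium, the coating of the dishes, the growth factors added or the number of MEF preparations. Each group holds 3 biological replicates of 1 line, so the p-values measure the spread between replicate cultures of HSF1 and not between lines. The RNA came from whole cultures, in which fewer cells of a type and less RNA per cell cannot be told apart.

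Conditioned medium is a long-used substitute for feeder cells, because MEFs release proteins that help human embryonic stem cells to stay undifferentiated. These cells depend on fibroblast growth factor (FGF), which acts through the kinase ERK, and on Activin or Nodal. ERK induces its own inhibitors, among them the DUSP phosphatases and the Sprouty proteins, so that the RNA of these genes is commonly used as a readout of the pathway. BMP, a related signal, induces the ID genes and can drive the cells toward extraembryonic fates.

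Levels are RMA values on a log2 scale, in which a difference of 1 is a 2-fold change. Genes are said to have risen or fallen where the adjusted p from limma, over all tested genes, was under 0.05. Replicates correlated at r = 0.9974 to 0.9976 in unconditioned medium and 0.9956 to 0.9959 in conditioned medium, against 0.9919 to 0.9938 between the media, and the first principal component, with 68.1% of the variance, separated the media. A measure of RNA integrity moved with the medium. For the control gene ACTB the signal of the 3-prime probe set minus that of the 5-prime probe set was 1.52, 1.55 and 1.63 in unconditioned and 1.67, 1.75 and 1.84 in conditioned medium, so the groups did not overlap, and its part in the results was not tested beyond a fit that holds it as a covariate. All 10 measured markers of human embryonic stem cells, of 12 listed, were above a log2 level of 5 in both media, with a median level of 12.64 in each. Among them 4 rose and 2 fell. Of 12 fibroblast markers 0 rose and 3 fell (COL1A1, COL1A2 and THY1), and the levels of LUM, FAP and TWIST1 stayed below 5. The summed level of the 12 ran from 12.6 to 12.73 on the log2 scale in unconditioned and from 11.78 to 11.93 in conditioned medium. This sum is of unlogged levels, so genes at high levels weigh most, among them THY1 (mean 11.63 and then 10.15). The median level of the 12 markers was 5.598 in unconditioned and 5.526 in conditioned medium.

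Conditioned medium moved the level of many genes by small amounts and of a few genes by large ones. Of 16323 tested genes 4790 passed the threshold (29.3%). Of these, 2270 rose (13.9% of tested genes) and 2520 fell (15.4%). The counts in the gene lists below are to be read beside these shares. In 4688 of the 4790 the arrays of the 2 media did not overlap, so separate arrays set no single gene apart. The median size of the change among the 4790 was 0.304, and 128 changed at least 2-fold, 67 upward and 61 downward. The median difference over all tested genes was 0.03. When this ACTB measure was held as a covariate, 1222 genes passed, and the 1138 shared with the main result were 23.8% of it. In the fit of all 12 arrays of both lines, 3040 passed in HSF1.

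**Figure D1:**
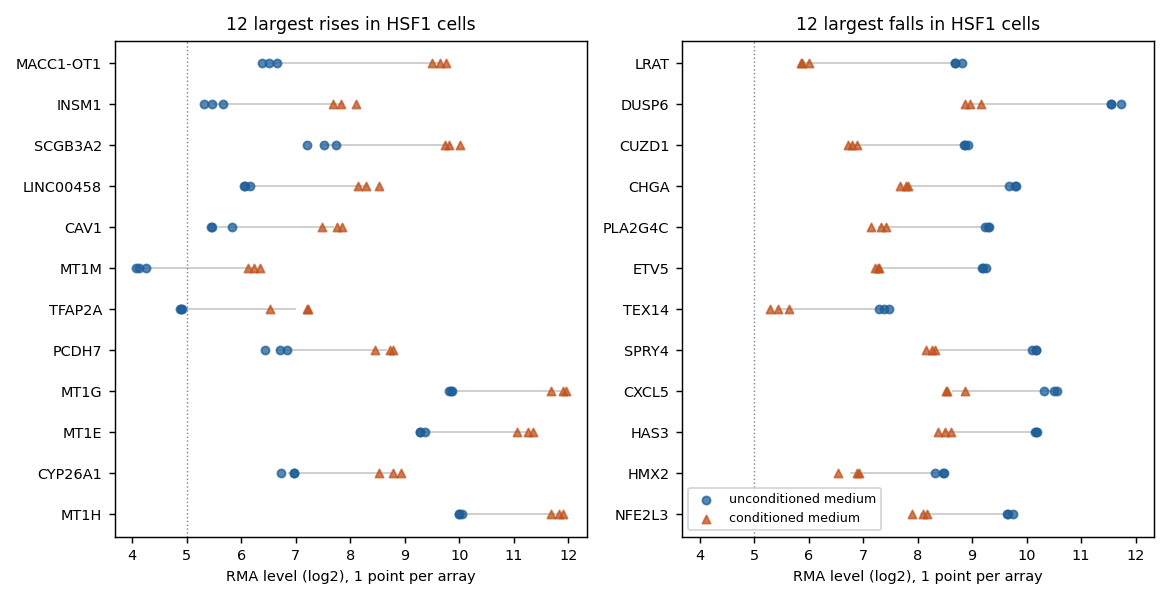
RMA levels (log2) of the 12 largest rises and the 12 largest falls in HSF1 cells, with 1 point per array, circles for unconditioned and triangles for conditioned medium, and a grey line between the group means. The 24 genes were chosen among those in which the 3 arrays of one medium lie apart from the 3 of the other, so this separation is no result. The dotted line marks the filter at a level of 5.

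Most genes of the FGF and ERK feedback list that restrain ERK signalling fell in conditioned medium, but not all of them. DUSP6, a phosphatase that inactivates ERK, was at 11.74, 11.55 and 11.55 in unconditioned medium and at 9.16, 8.96 and 8.87 in conditioned medium. It fell 6.15-fold (log2 difference -2.62, SE 0.0738, adjusted p = 4.84e-11), the second largest fall of all genes. SPRY4, a Sprouty inhibitor of receptor signalling, was at 10.18, 10.18 and 10.09 and then at 8.31, 8.15 and 8.27 (difference -1.91, SE 0.0589). ETV5, a transcription factor induced by FGF, was at 9.20, 9.26 and 9.18 and then at 7.22, 7.28 and 7.29 (difference -1.95, SE 0.0607). No array of one medium overlapped with the other medium in these 3 genes, as in most genes that passed.

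Further members of the list fell as well. DUSP5, a nuclear phosphatase of ERK, fell by 1.60, ETV4, a relative of ETV5, by 1.09, and EGR1, an early response gene, by 1.04. The inhibitors SPRED1 and SPRY2 fell by 0.95 and 0.83. The Sprouty gene SPRY1 differed by 0.02 (SE 0.0687, adjusted p = 0.829), and DUSP1, a phosphatase counted among the immediate early genes, by -0.1 (SE 0.0731, adjusted p = 0.333), both with overlapping arrays. Averaged over its probe sets SPRY1 passed, at 0.20. In the whole list of FGF and ERK feedback genes 13 of 24 fell and 6 rose, with a list median of -0.52 against 0.03 over all tested genes. The genes that rose included the receptors FGFR3 (0.93, SE 0.0681) and FGFR2 (0.63, SE 0.0597) and the ligand FGF2 (0.25, SE 0.0525). FGFR3 was at 9.54, 9.78 and 9.76 in unconditioned and at 10.52, 10.64 and 10.70 in conditioned medium. With the ACTB covariate 10 members fell and 2 rose, and leaving out any 1 array gave 13 falls and 5 or 6 rises. When all probe sets of a gene were averaged the differences were -0.98 for ETV5, 0.51 for FGFR3 and 0.25 for FGFR2, and FGF2 lost its call with the ACTB covariate (adjusted p = 0.0971) and with all 12 arrays (0.118).

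**Figure D2:**
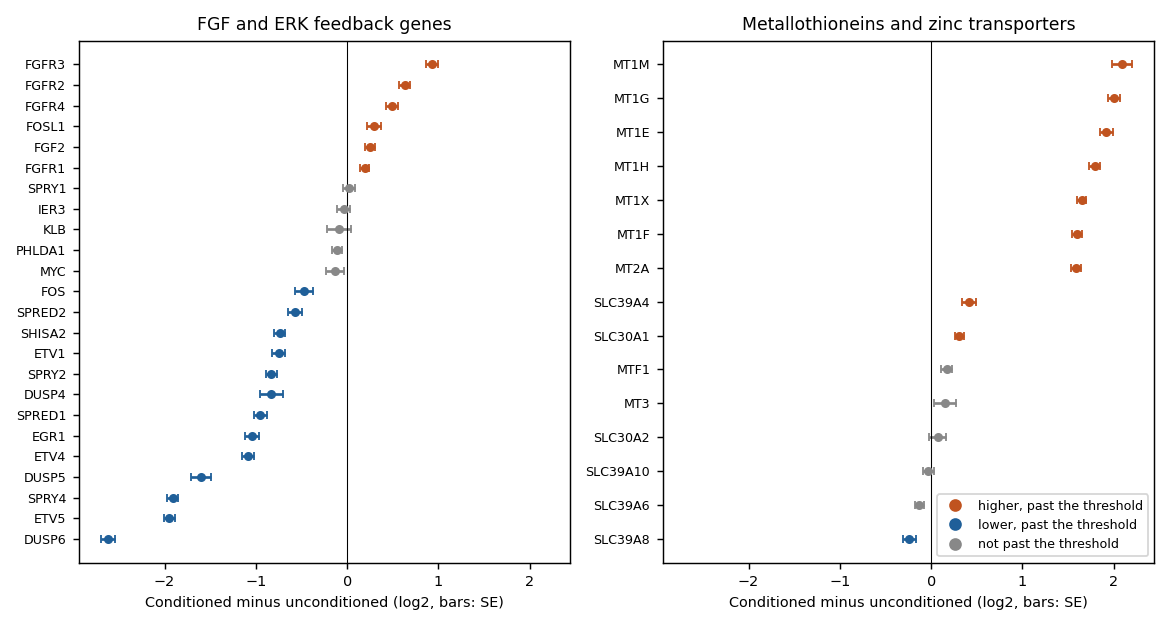
Difference between conditioned and unconditioned medium (log2, bars show the SE of the fit) for the 24 tested FGF and ERK feedback genes and the 15 tested metallothioneins and zinc transporters, with 3 arrays a medium. DUSP6 lies lowest at -2.62 and the receptors FGFR3 and FGFR2 highest in the first panel, and 7 metallothioneins lie between 1.59 and 2.09 in the other.

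Of 8 tested metallothioneins, small cysteine-rich proteins that bind zinc and copper, 7 rose. The other one, MT3, differed by 0.15 and did not pass (SE 0.117, adjusted p = 0.358), with overlapping arrays. Of the 7, MT1M passed the filter only through its conditioned level, so it adds little to the count of rises. Metallothionein genes are induced when the zinc sensor MTF1 binds metal response elements near the start of the gene. The 250 bases before the start are shown for the 3 of 7 risen metallothionein genes that have an entry in the RefSeq promoter table (GRCh38.p14, plus strand), to show how densely these elements lie there. Capitals mark every match to TGCACNC or TGCGCNC on either strand, where N is any base. The stretches are chr16:56608334-56608583 for MT2A, chr16:56669564-56669813 for MT1H and chr16:56682220-56682469 for MT1X.
MT2A: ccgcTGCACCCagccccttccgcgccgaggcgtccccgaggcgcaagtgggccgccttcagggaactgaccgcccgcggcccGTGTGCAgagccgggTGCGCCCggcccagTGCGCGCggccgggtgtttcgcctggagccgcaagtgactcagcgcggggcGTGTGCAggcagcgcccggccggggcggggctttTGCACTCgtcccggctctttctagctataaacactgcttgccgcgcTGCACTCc
MT1H: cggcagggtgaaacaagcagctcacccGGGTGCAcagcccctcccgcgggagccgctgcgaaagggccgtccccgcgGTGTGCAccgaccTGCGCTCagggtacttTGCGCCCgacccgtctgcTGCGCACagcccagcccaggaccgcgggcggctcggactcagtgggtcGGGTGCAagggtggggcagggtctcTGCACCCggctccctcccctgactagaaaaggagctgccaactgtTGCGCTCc
MT1X: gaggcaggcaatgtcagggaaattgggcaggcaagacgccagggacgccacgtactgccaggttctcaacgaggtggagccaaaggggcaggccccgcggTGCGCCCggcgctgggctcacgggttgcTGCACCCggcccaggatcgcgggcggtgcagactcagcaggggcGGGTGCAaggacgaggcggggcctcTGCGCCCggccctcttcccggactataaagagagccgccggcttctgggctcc

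MT2A held 7 matches, MT1H 8 and MT1X 4 in these windows. Of 27305 promoters of the same length 24.7% held at least 1 match and 0.366% held at least 4. A match is a description of the letters and not a measured binding site.

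MT1X was at 10.49, 10.49 and 10.55 in unconditioned medium and at 12.12, 12.26 and 12.10 in conditioned medium, a 3.14-fold rise (log2 difference 1.65, SE 0.0515, adjusted p = 8.16e-11). MT2A, the most widely expressed member of the family, was at 10.44, 10.56 and 10.53 and then at 12.18, 12.12 and 11.99 (1.59, SE 0.0557). MT1H rose from 10.01 ± 0.036 to 11.80 ± 0.114 (SD, n = 3 each), by 1.79 (SE 0.0573). In all 3 genes every array in conditioned medium lay above every array in unconditioned medium. MT1M rose by 2.09, MT1G by 2.00, MT1E by 1.92 and MT1F by 1.60. The unconditioned level of MT1M (4.07 to 4.25) lay below the filter of 5, where background limits the value, so its difference gives no exact fold.

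Probe sets of these paralogs can bind each other's RNA, so the single genes are uncertain. The rises of MT1G, MT1E, MT1H, MT1X, MT1F and MT2A all came from probe sets of the kind that can match several genes. Only that of MT1M came from another kind. MT1G also had a probe set of the other kind, which gave -0.01 (adjusted p = 0.959). Of the 15 tested metallothioneins and zinc transporters 9 rose and 1 fell, with a median of 0.41. The zinc exporter SLC30A1 rose by 0.31 and the zinc importer SLC39A4 by 0.41. Their calls ended with the ACTB covariate (adjusted p = 0.129 and 0.293), and that of SLC30A1 also averaged over its probe sets (0.11, adjusted p = 0.246). With the covariate 7 members of the list rose and 0 fell.

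Most genes of the BMP list rose. ID1, a target that blocks differentiation factors, was at 11.67, 11.81 and 11.86 in unconditioned and at 13.04, 13.10 and 12.77 in conditioned medium (difference 1.19, SE 0.0759, adjusted p = 8.7e-08). SMAD6, an inhibitor of BMP signals inside the cell, was at 7.15, 7.31 and 7.19 and then at 8.44, 8.60 and 8.55 (1.31, SE 0.0718). The ligands BMP4 and BMP2 rose by 1.10 and 0.69, and ID4 rose by 0.98. ID3, in contrast, was at 11.29, 11.29 and 11.39 and then at 10.44, 10.43 and 10.29, a fall of 0.94 (SE 0.0545). Of 17 genes of the BMP list 11 rose and 1, ID3, fell, with a median of 0.31. The corresponding counts with the ACTB covariate were 7 and 1. SMAD6 was at 0.38 averaged over its probe sets, of which 3 of 4 had its direction.

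The Nodal and TGF-beta list, which shares ID1 with the BMP list, had 9 rises and 2 falls among 20 genes and a median of 0.16. LEFTY1, an inhibitor that Nodal signals induce, was at 5.93, 5.81 and 5.79 and then at 7.47, 7.67 and 7.01 (1.54, SE 0.134). FST, the secreted Activin inhibitor follistatin, rose by 1.27, and CCN2, a matrix protein induced by TGF-beta, by 1.16. NODAL itself rose by 0.80 and SKIL, a nuclear repressor of the pathway, by 0.73. INHBA, which encodes the subunit of Activin A, fell by 0.80 (SE 0.112). When all probe sets of a gene were averaged NODAL was at 0.49 and SKIL at 0.30. With the ACTB covariate 7 members of the list rose and 1 fell.

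The core pluripotency genes changed little in size. SOX2 rose by 0.27 (SE 0.0508) and NANOG by 0.23 (SE 0.0599), from 11.60, 11.74 and 11.70 to 11.79, 11.91 and 12.03. PRDM14, a repressor of differentiation genes, rose by 0.69, and UTF1, a chromatin factor of undifferentiated cells, by 0.91. Of 23 core genes 8 rose and 2 fell, with a median of 0.05. Changes of similar size in the other direction were those of the stem cell markers DPPA4 (-0.30) and L1TD1 (-0.28). The calls of NANOG and UTF1 ended with the ACTB covariate (adjusted p = 0.911 and 0.150), and that of NANOG also without replicate 1 of unconditioned medium or without the intensity trend.

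Of the genes of the naive state, the earlier embryonic form of pluripotency, 9 rose. FGF4, a growth factor of the early embryo, was at 6.55, 6.65 and 6.68 and then at 8.26, 8.32 and 8.01 (1.57, SE 0.0877). TFAP2C, a transcription factor of naive cells and of trophoblast, was at 8.48, 8.45 and 8.55 and then at 9.86, 10.01 and 10.16 (1.52, SE 0.0712). DPPA5 rose by 1.39 and KLF4, a reprogramming factor, by 1.24. Of 16 naive-state genes 9 rose and 0 fell, and all 16 differences were above 0, with a median of 0.29. Over all tested genes 13.9% rose and 15.4% fell, with a median of 0.03. When all probe sets of a gene were averaged TFAP2C was at 0.98, FGF4 at 0.85 and KLF4 at 0.78, with the ACTB covariate 4 members rose, and without replicate 2 of unconditioned medium 5.

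Genes of the primed state went both ways. THY1, the surface protein CD90, was at 11.71, 11.71 and 11.47 and then at 10.25, 10.17 and 10.04 (-1.48, SE 0.0689), and the WNT modulator SFRP2 fell by 0.90. The neural cadherin CDH2 and OTX2, a homeobox gene of the epiblast and forebrain, rose by 0.80 and 0.81. Of 18 primed-state genes 8 fell and 5 rose, with a median of -0.11, and DUSP6 is one of the 8. CDH2 was at 0.52 averaged over its probe sets.

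Regulators of specific lineages were among the largest changes without a common direction for a germ layer. TFAP2A, a factor of surface ectoderm, neural crest and trophoblast, was at 4.92, 4.87 and 4.90 and then at 6.52, 7.22 and 7.20 (2.08, SE 0.154). It started below the filter and entered the test only through its conditioned level. INSM1, a zinc finger factor of neuroendocrine cells, was at 5.32, 5.46 and 5.67 and then at 7.68, 8.10 and 7.82, a 5.21-fold rise (2.38, SE 0.117). CHGA, the secretory granule protein chromogranin A, went the opposite way, from 9.81, 9.68 and 9.79 to 7.78, 7.82 and 7.67 (-2.0, SE 0.0622). Neither gene had overlapping arrays. LMO3, a LIM-domain cofactor of neural cells, fell by 1.59, and HMX2, a homeobox gene of the inner ear and hypothalamus, fell by 1.64. HHEX, a homeobox gene of anterior endoderm, rose by 1.26, from 5.31, 5.40 and 5.55 to 6.80, 6.91 and 6.32.

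In the neuroectoderm list 8 of 22 genes rose and 5 fell (median 0.13), among them HESX1, a forebrain and pituitary homeobox gene, which rose by 0.71, and POU3F1, a POU factor of neural progenitors, which fell by 0.73. In the trophoblast and amnion list 4 of 13 rose and 5 fell (median 0.14), and without any 1 conditioned array 1 or 2 rose. The epithelial keratins KRT18 and KRT8 fell by 0.75 and 0.55. In the mesoderm and primitive streak list 4 of 17 rose and 2 fell (median 0.21). With the ACTB covariate 1 of these genes rose and 0 fell, and the falls numbered 0, 1 and 0 without unconditioned array 1, 2 or 3. In the endoderm list 3 of 13 rose and 0 fell (median 0.13). When all probe sets of a gene were averaged TFAP2A was at 0.82, INSM1 at 1.40 and POU3F1 at -0.48.

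Retinoid genes held changes at both ends of the ranking. LRAT, the enzyme that esterifies retinol for storage, had the largest fall of all genes. Its levels were 8.82, 8.69 and 8.68 in unconditioned and 5.87, 6.0 and 5.86 in conditioned medium, a 7.06-fold fall (-2.82, SE 0.0768, adjusted p = 4.84e-11). CYP26A1, which degrades retinoic acid and is induced by it, was at 6.96, 6.72 and 6.97 and then at 8.52, 8.93 and 8.78, a 3.62-fold rise (1.86, SE 0.101). The arrays of the media did not overlap in either gene. In the list of retinoid metabolism and response, which does not include LRAT, 5 of 16 genes rose and 0 fell, with a median of 0.16. They included CRABP2, a carrier of retinoic acid (0.75), ALDH1A3, an enzyme that makes it (0.64), and DHRS3, which reduces retinaldehyde (0.54). With the ACTB covariate 4 rose, and ALDH1A3 was at 0.34 averaged over its probe sets.

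In central metabolism, the subject of the series, the lactate dehydrogenase genes differed by small amounts. LDHA, the lactate dehydrogenase subunit that favours lactate, was at 13.06, 13.00 and 12.99 and then at 13.30, 13.30 and 13.14, a rise of 0.23 (SE 0.0522, adjusted p = 0.00441). LDHB, the other subunit, was at 14.24, 14.26 and 14.26 and then at 14.15, 14.14 and 14.04, a fall of 0.14 (SE 0.0454, adjusted p = 0.0287). LDHA was at 0.39 with the ACTB covariate. The arrays of the media did not overlap in either gene, yet LDHB lost its call in 6 alternatives, among them without any 1 unconditioned array and with the ACTB covariate (adjusted p = 0.548). PKM, pyruvate kinase, differed by 0.14 and did not pass (SE 0.0566, adjusted p = 0.0705).

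Of 21 glycolysis genes 7 rose and 0 fell, with a median of 0.05. Averaging the probe sets of a gene gave 6 rises and 3 falls, and the ACTB covariate 3 rises and 0 falls. The rises were between 0.21 and 0.43 and included PFKFB3, a regulator of phosphofructokinase (0.43, SE 0.0766), and ENO2, an enolase (0.37, SE 0.0509), both of which lost their calls with the ACTB covariate (adjusted p = 0.0741 and 0.0817). HK2, a hexokinase, rose by 0.25 (SE 0.0578) in the probe set used, but its other probe sets had the opposite sign and the mean over all 3 was -0.17. In lactate and pyruvate handling 2 of 15 rose and 5 fell (median -0.02). SLC16A7, a monocarboxylate transporter, had the largest difference of this list, from 5.92, 5.52 and 5.74 to 5.18, 4.67 and 5.22 (-0.71, SE 0.152, adjusted p = 0.00314), close to the filter, and lost its call with the ACTB covariate (adjusted p = 0.183). Among the falls was also MPC1, a subunit of the mitochondrial pyruvate carrier, which fell by 0.48 (SE 0.0726) from 8.39, 8.48 and 8.38 to 7.82, 7.92 and 8.07. MPC1 was at -0.25 averaged over its probe sets.

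In the TCA cycle list 1 of 20 genes rose and 5 fell (median -0.05), and 0 and 2 with the ACTB covariate. ME1, malic enzyme of the cytosol, was at 9.12, 9.01 and 9.09 and then at 8.29, 8.23 and 8.31, a fall of 0.80 (SE 0.0588). Of 43 oxidative phosphorylation genes 3 rose and 3 fell (median 0.02). With the ACTB covariate 0 rose and 6 fell, and the rises numbered 1 without replicate 1 of unconditioned medium and 5 without replicate 1 of conditioned medium. No pentose phosphate gene of 9 passed in limma, and PGD, an enzyme of the oxidative branch, differed by -0.19 (SE 0.0743, adjusted p = 0.074). In the serine, glycine and folate pathway 3 of 13 fell and 0 rose (median 0.00), and without any 1 unconditioned array 1 fell. ALDH1L2, a mitochondrial folate enzyme, had the largest difference, at 5.58, 5.62 and 5.79 and then at 4.29, 4.57 and 4.84 (-1.09, SE 0.139). Its conditioned level lay below the filter of 5, so it entered the test through its unconditioned level and this difference gives no exact fold.

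Lipid genes also moved little. In cholesterol synthesis and uptake 4 of 20 fell and 0 rose (median -0.06), none of the 4 passed with the ACTB covariate, and 1 fell without replicate 1 or 3 of unconditioned medium and 2 without replicate 2 of it or replicate 3 of conditioned medium. SC5D, a late enzyme of sterol synthesis, fell by 0.48, but by 0.06 averaged over its probe sets (adjusted p = 0.439). Among LXR targets of sterol efflux 2 of 7 fell and 0 rose (median -0.17), among them the transporter ABCA1 (-0.53, and -0.34 averaged over its probe sets). In fatty acid synthesis and desaturation 6 of 16 rose and 3 fell (median 0.01). The rises numbered 0 with the ACTB covariate, 1 in the fit of all 12 arrays, and 1, 3 and 3 without unconditioned array 1, 2 or 3. ELOVL6, an elongase, fell by 0.49 (SE 0.0449). In fatty acid oxidation 1 of 20 rose and 6 fell (median -0.10), 0 passed with the covariate, and 3 fell without replicate 3 of unconditioned medium.

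**Figure D3:**
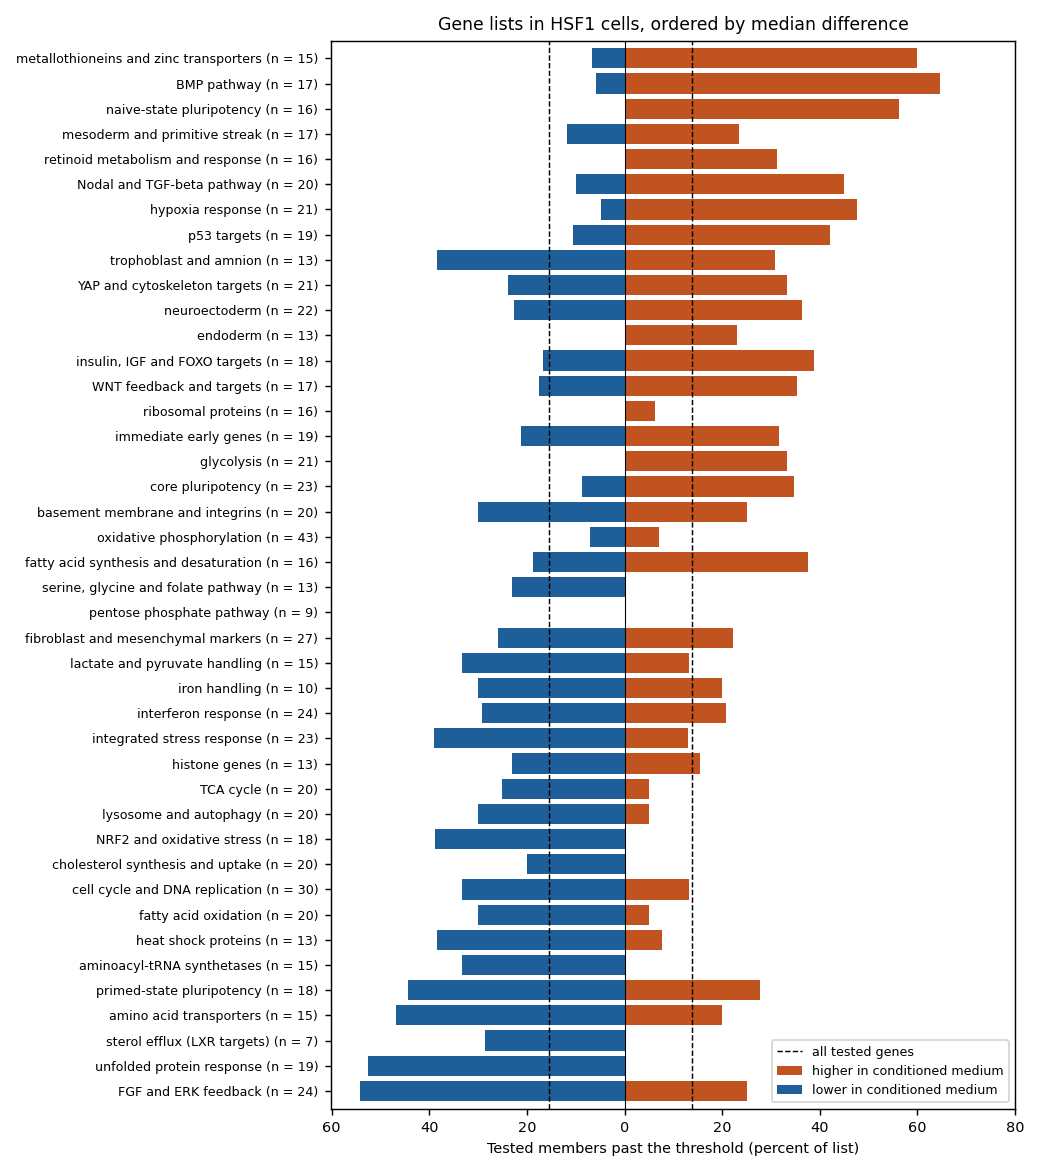
Share of the tested members of each of 42 gene lists that rose (right) or fell (left) in conditioned medium in HSF1 cells, in percent, ordered by the list's median difference, with the number tested beside each name. Dashed lines mark the shares over all tested genes, 13.9% and 15.4%. The metallothionein list has the highest and the FGF and ERK feedback list the lowest median.

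Several genes of the response to low oxygen rose by less than 2-fold. Of 21 hypoxia genes 10 rose and 1 fell, with a median of 0.16, and the same counts held with the ACTB covariate. P4HA2, a prolyl hydroxylase of collagen, rose by 0.78, ANKRD37 by 0.74 and the secreted hormone STC1 by 0.69. The exception was ADM, the vasoactive peptide adrenomedullin, which fell from 11.98 ± 0.0307 to 10.82 ± 0.0953 (SD, n = 3 each), with the media apart (-1.16, SE 0.0528). When all probe sets of a gene were averaged P4HA2 was at 0.35 and ANKRD37 at 0.41.

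Several lists of stress responses held more falls than rises, as did all tested genes, of which 15.4% fell and 13.9% rose. Of 19 genes of the unfolded protein response in the endoplasmic reticulum 10 fell and 0 rose, with a median of -0.19. HERPUD1, which helps to degrade misfolded proteins, fell by 0.76 (SE 0.0869) and XBP1, a transcription factor of this response, by 0.47, both also with the ACTB covariate, under which 2 members fell in all. XBP1 and HERPUD1 were each at -0.28 averaged over their probe sets. The chaperone HSP90B1 fell by 0.29, a call that ended with the covariate (adjusted p = 0.252) and with all 12 arrays.

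The oxidative stress list of NRF2 targets had 7 falls and 0 rises among 18 genes, with a median of -0.06. HMOX1, heme oxygenase, was at 8.74, 8.60 and 8.69 and then at 7.26, 7.33 and 7.09 (-1.44, SE 0.0755). NQO1, a quinone reductase, was at 9.74, 9.81 and 9.90 and then at 9.15, 9.05 and 8.74 (-0.84, SE 0.0864). Both had separate arrays in the 2 media. The cystine transporter SLC7A11 fell by 0.74, and with the covariate 4 of the 18 fell.

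In the integrated stress response 9 of 23 genes fell and 3 rose, with a median of -0.04. SQSTM1, an autophagy receptor, fell by 0.56 (-0.19 averaged over its probe sets), whereas DDIT4, an inhibitor of mTOR signalling, rose by 0.75 and the lipoprotein receptor VLDLR by 0.66. Of 15 amino acid transporters 7 fell and 3 rose (median -0.12). The glutamate transporter SLC1A3 fell by 0.82, SLC7A8 by 0.61, and SLC3A2, the shared heavy chain of several transporters, by 0.53. Of 15 aminoacyl-tRNA synthetases 5 fell and 0 rose (median -0.11), and of 13 heat shock genes 5 fell and 1 rose (median -0.11), and with the covariate 0 genes passed in either list. Among iron genes 3 of 10 fell and 2 rose (median -0.03), and among lysosome and autophagy genes 6 of 20 fell and 1 rose (median -0.06).

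Other signalling lists were mixed. In the WNT list 6 of 17 genes rose and 3 fell (median 0.09). FZD5, a WNT receptor, was at 10.50, 10.47 and 10.47 and then at 11.63, 11.68 and 11.70 (1.19, SE 0.0446), while the ligand WNT5A fell by 0.79. Among insulin, IGF and FOXO targets 7 of 18 rose and 3 fell (median 0.11), with TXNIP, an inhibitor of glucose uptake, at 0.67 (0.32 averaged over its probe sets). Among immediate early genes 6 of 19 rose and 4 fell (median 0.05), and among YAP and cytoskeleton targets 7 of 21 rose and 5 fell (median 0.13). In the p53 list 8 of 19 rose and 2 fell (median 0.15), and 3 rose with the ACTB covariate and in the fit of all 12 arrays. The cell cycle inhibitor CDKN1A rose by 0.61, whereas the death receptor FAS was at 7.78, 7.92 and 7.98 and then at 6.45, 6.80 and 6.55 (-1.29, SE 0.0947).

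In cell cycle and DNA replication 10 of 30 genes fell and 4 rose (median -0.08). The mitotic kinases AURKA and PLK1 rose by 0.50 and 0.48, while the replication gene CDC6 fell by 0.40. With the ACTB covariate 2 fell and 3 rose, and without replicate 2 of unconditioned medium 6 fell and 2 rose. In the interferon list 7 of 24 fell and 5 rose (median -0.04), with B2M, the invariant chain of class I molecules, at -0.51 and the membrane protein IFITM1 at 0.42. Of 13 histone genes 3 fell and 2 rose (median -0.05), and of 16 ribosomal protein genes 1 rose and 0 fell (median 0.06).

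Genes of the membrane, matrix and cytoskeleton also changed, and the first ones named here form no list. CAV1, PCDH7 and HAS3 were chosen by size, and STOM and DIAPH2 by a small p for the difference between HSF1 and H9. CAV1, the coat protein of caveolae, was at 5.47, 5.45 and 5.83 and then at 7.84, 7.75 and 7.48 (2.11, SE 0.119). STOM, a membrane protein that resides in lipid rafts, was at 9.15, 9.27 and 9.26 and then at 10.56, 10.65 and 10.70, a 2.66-fold rise (1.41, SE 0.0559). The protocadherin PCDH7 was at 6.43, 6.71 and 6.83 and then at 8.45, 8.73 and 8.78 (2.00, SE 0.107; 0.98 averaged over its probe sets). None of these 3 had overlapping arrays. DIAPH2, a formin that nucleates actin, rose by 1.27 (0.79 averaged). HAS3, which makes hyaluronan, fell by 1.68 (-0.89 averaged).

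In the list of basement membrane genes and integrins 5 of 20 rose and 6 fell (median 0.03). The integrin ITGB5 was at 10.56, 10.56 and 10.55 and then at 11.55, 11.53 and 11.51 (0.98, SE 0.0436) and the laminin LAMA5 rose by 0.62, while the laminin receptor ITGA6 fell by 0.56. Among 27 fibroblast and mesenchymal genes 6 rose and 7 fell (median -0.02). The matrix protein FN1 and the filament protein VIM rose by 0.77 and 0.67, and smooth muscle actin ACTA2 and the collagen COL1A2 fell by 0.81 and 0.51. When all probe sets of a gene were averaged FN1 was at 0.50, VIM at 0.43 and ACTA2 at -0.30. ACTB and GAPDH, common reference genes, differed by 0.05 and -0.01 and did not pass.

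The remaining large changes belong to no list. MACC1-OT1, a noncoding transcript named for its overlap with MACC1, had the largest rise, from 6.38, 6.50 and 6.66 to 9.64, 9.49 and 9.75. This is an 8.63-fold rise (3.11, SE 0.0852, adjusted p = 4.84e-11), seen in both of its probe sets. LINC00458, a noncoding RNA of embryonic stem cells, was at 6.06, 6.16 and 6.05 and then at 8.53, 8.29 and 8.15 (2.23, SE 0.0943). SCGB3A2, a secreted protein of airway epithelium, rose by 2.37, from 7.20, 7.52 and 7.74 to 9.73, 9.82 and 10.01.

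Among the falls, CUZD1, a membrane protein with CUB and zona pellucida domains, was at 8.86, 8.85 and 8.92 and then at 6.73, 6.80 and 6.88, a 4.22-fold fall (-2.08, SE 0.068). PLA2G4C, a cytosolic phospholipase, fell by 1.98 (-0.99 averaged over its probe sets), TEX14, a germ cell protein, by 1.93, the chemokine CXCL5 by 1.82, and NFE2L3, a relative of NRF2, by 1.62. The 24 largest rises and falls kept their calls in every alternative that tested them, apart from MT1G without the probe sets that can match several genes. MT1E and MT1H have no other probe sets, so that alternative could not test them. They were tested in 19 alternatives and MT1M and TFAP2A in 17, against 20 for the rest.

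The same medium comparison in H9, with 3 arrays for each medium, addresses how far the HSF1 response was shared. In H9 2720 of 16572 tested genes passed (16.4%), 572 higher and 2148 lower. H9 arrays 2 and 3 in unconditioned medium had ACTB 3-prime minus 5-prime differences of 3.25 and 2.89, against 1.07 in array 1, and stood apart in this measure of RNA integrity. In the joint fit of both lines 970 genes passed in both, which is 31.9% of the HSF1 calls and 35.7% of the H9 calls, and 890 of them moved in the same direction. Of the HSF1 calls 72% had the same sign in H9, against 62.4% of all tested genes. Across the 16572 genes the differences of the lines correlated at r = 0.467, a description in which genes are not independent replicates.

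Of the 12 largest rises in HSF1 11 also rose in H9, and all of the 12 largest falls also fell there. The size often differed, since the difference between the lines passed for 7 of the 12 rises and 10 of the 12 falls. CUZD1 was at -2.08 in HSF1 and -1.99 in H9, CAV1 at 2.11 and 1.98, and CXCL5 at -1.82 and -1.59. For these 3 genes the difference between the lines did not pass (adjusted p = 0.714, 0.762 and 0.382).

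The size of the response differed between the lines for 1281 genes by the interaction term (7.73% of tested genes), and without H9 arrays 2 and 3 for 535. DUSP6 fell by 2.62 in HSF1 and by 0.71 in H9 (difference of the responses -1.91, adjusted p = 8.05e-07), and SPRY4 and ETV5 likewise fell more in HSF1, by differences of -1.27 and -1.14. In the FGF and ERK feedback list 11 of 24 genes passed this test. EGR1 went the other way, at -1.04 in HSF1 and -2.07 in H9 (difference 1.03, adjusted p = 0.00136), a call that ended averaged over its probe sets (0.53, adjusted p = 0.054). CYP26A1 rose by 1.86 in HSF1 and was at -0.04 in H9 (difference 1.90, adjusted p = 8.32e-05), and STOM rose by 1.41 and was at 0.14 (difference 1.27). THY1 was at -1.48 in HSF1 and 0.23 in H9 (difference -1.70, adjusted p = 0.00215). CDKN1A rose by 0.61 in HSF1 and fell by 0.46 in H9 (difference 1.07).

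DIAPH2, at 1.27 and 0.37, OPTN, an autophagy receptor, at 0.09 and -0.95, and D21S2088E, at -1.50 and -0.22, were the other genes with the smallest p for a difference between lines. Of the list medians, hypoxia response was at 0.16 in HSF1 and -0.02 in H9, p53 targets at 0.15 and -0.20, and cholesterol synthesis at -0.06 and 0.19, while BMP genes were at 0.31 in both, naive-state genes at 0.29 and 0.30, and metallothioneins and zinc transporters at 0.41 and 0.83. These medians were not tested against each other.

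**Figure D4:**
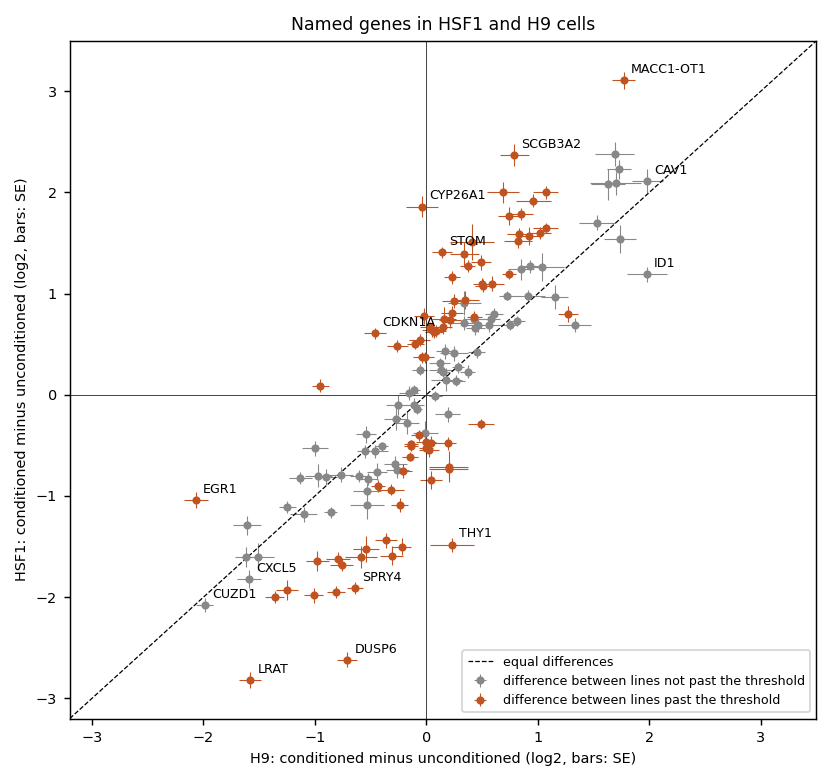
Difference between conditioned and unconditioned medium in H9 (horizontal) and HSF1 (vertical) for the genes named in the text (log2, bars show the SE, 3 arrays for each line and medium), with the dashed line at equal differences. Orange points passed the test of the difference between lines. DUSP6 and CYP26A1 lie far from the line, and CUZD1 and CAV1 lie on it within their errors.

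Whole feeder cells were also compared with feeder-free culture in HSF1 under DMSO, on 1 array each that the medium comparison does not use, so there is no replicate and no test. Of the 16323 genes 41.6% were higher and 58.4% lower with feeders, and their median difference was -0.39. The same genes had medians of -0.12 in H1 cells and -0.15 in H9 cells. The SD of the differences over genes was 1.07 in HSF1, 0.521 in H1 and 0.666 in H9. Across these genes the feeder difference correlated with the medium difference at r = 0.298. Of the 12 largest rises in conditioned medium 10 were higher with feeders and all of the 12 largest falls were lower. Some of these values were small, as for INSM1 (0.06), MT1H (0.16), MT1E (0.17) and SCGB3A2 (0.30). Among the falls CXCL5 (-0.37) and HMX2 (-0.44) lay near the median of all genes. CAV1 was 2.94 higher with feeders, PCDH7 5.86 higher, CYP26A1 1.98 higher and MACC1-OT1 1.85 higher, whereas MT1M was at -0.47 and MT1G at -0.27. With feeders LRAT was at -2.07, DUSP6 at -1.89 and CUZD1 at -4.72. Over all genes that rose in conditioned medium 34.3% were higher with feeders, below the 41.6% of all genes, and of those that fell 91% were lower.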

How the data were processed

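RNA of feeder-free HSF1 cells was measured on 3 arrays in unconditioned and 3 in conditioned medium, grouped by sample title. The authors deposited log2 values for 54675 probe sets, made with RMA per the submitters' processing notes. RMA corrects background, equalises the arrays' distributions and summarises probes. The sources used here do not give its version or say whether the arrays were run through it together. Equalising the arrays would hide a change shared by most genes.

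Probe sets with 1 gene symbol in the platform annotation (41097; 1801 had several and 11777 none) gave 19775 genes, each represented by its probe set with the highest mean over the 24 arrays. Genes that exceeded a log2 level of 5 on 3 or more of the 6 arrays were tested with limma 3.58.1 in R 4.3.3 (lmFit, eBayes with an intensity trend, Benjamini-Hochberg adjustment, threshold 0.05), without a block. The difference between lines is the interaction of line and medium in a fit of 12 arrays, which also gave the H9 values. The fits were tested on simulated data. Intervals are SE. Alternatives changed the filter, normalization, probe set, variance model, covariates and arrays.

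The members and the 42 gene lists were chosen with earlier results of these data known. The naming rule takes the 12 largest rises and falls with separate arrays, up to 4 genes per list and 4 per direction of the interaction by p, and 10 genes in any case. Outside it, 37 genes were named after their values were seen, among them MT2A, SLC30A1, SLC39A4, DUSP5, SPRED1, SPRY2, FGFR3, FGFR2, FGF2, BMP4, BMP2, LEFTY1, INHBA, MT3, SPRY1 and DUSP1. A probe set of their own was missing for 84 list genes in this annotation, POU5F1 among them, which are not analysed here. Promoter sequences are from RefSeq (GRCh38.p14).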

Additional observations from a re-analysis of the deposited data

Results flagged for a closer look

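The response to conditioned medium differed between HSF1 and H9 for 1281 genes by the interaction term of limma, which tests the HSF1 difference minus the H9 difference. Of the genes named here 77 passed this test, 42 with a larger or opposite value above 0 in HSF1 and 33 with a larger or opposite value below 0. All values in parentheses are HSF1 difference minus H9 difference on the log2 scale. Without H9 unconditioned arrays 2 and 3, whose RNA integrity measure stood apart, 58 of the 77 passed, and 37 passed in every alternative that tested them. The call of 6 genes held in under 50% of the alternatives, in 9 of 26 for BMP4, 10 of 26 for ID3 and CDC6, 11 of 26 for IRX3, and 12 of 26 for ENO2 and FN1.

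Among genes restraining ERK or induced by it, the fall was larger in HSF1 for DUSP6 (-1.91), ETV5 (-1.14), SPRY4 (-1.27), DUSP5 (-1.0) and ETV4 (-0.85). Among metallothioneins the rise was larger in HSF1 for MT1G (0.93), MT1E (0.96), MT1H (0.93), MT1X (0.58), MT1F (0.57) and MT2A (0.75). All of these started higher in H9, with unconditioned means of 12.12 against 9.84 in HSF1 for MT1G and 12.36 against 10.51 for MT2A. Whether this starting level affects the difference was not tested. The call of MT1X held in 13 of 25 alternatives. Further genes that rose more in HSF1 than in H9 were CYP26A1 (1.90), SCGB3A2 (1.58), MACC1-OT1 (1.34), PCDH7 (1.30), STOM (1.27), IRX1 (1.10), CDKN1A (1.07), DPPA5 (1.05), PCDH10 (1.03), CCN2 (0.93), DIAPH2 (0.90) and SMAD6 (0.83). Smaller excesses were those of P4HA2 (0.80), PLK1 (0.73), TFAP2C (0.70), FGFR3 (0.68), FGF4 (0.65), TXNIP (0.63), IRX2 (0.61), DHRS3 (0.60), AURKA (0.60), ALDH1A3 (0.59), IRX3 (0.59) and OTX2 (0.58). The smallest such values were those of IRX5 (0.58), ANXA2 (0.57), LAMA5 (0.56), FGFR2 (0.54), ANKRD37 (0.53), VIM (0.52), BMP4 (0.50), FZD5 (0.45), CAVIN1 (0.41), ENO2 (0.38) and FN1 (0.34). When all probe sets of a gene were averaged some of these calls ended, among them those of SMAD6 (0.12), TXNIP (0.07), FGFR3 (0.21) and P4HA2 (0.29). OPTN did not pass in HSF1 and fell in H9 (1.05).

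Genes with a lower difference in HSF1 than in H9 were THY1 (-1.70), LMO3 (-1.28), D21S2088E (-1.27), LRAT (-1.24), HMOX1 (-1.09), PDE4B (-0.98), PLA2G4C (-0.96), POU3F1 (-0.93), HAS3 (-0.92), SLC16A7 (-0.9), NQO1 (-0.88), NFE2L3 (-0.83) and HSP90B1 (-0.78). Smaller values of this sign were those of TEX14 (-0.68), SC5D (-0.67), HMX2 (-0.66), CHGA (-0.64), ID3 (-0.62), KRT8 (-0.58), KRT18 (-0.54), SLC3A2 (-0.53), MPC1 (-0.52), XBP1 (-0.47), SFRP2 (-0.46), SLC7A8 (-0.46), B2M (-0.37), ELOVL6 (-0.36) and CDC6 (-0.34). Some of these calls also ended when all probe sets of a gene were averaged, among them those of PDE4B (-0.32), HAS3 (-0.44) and SC5D (-0.27). EGR1 fell less in HSF1 than in H9 (1.03), and NODAL rose less (-0.47).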

How the results depend on the processing

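The count of genes past the threshold in HSF1 was 4790. It was 1222 with the ACTB difference as a covariate, which differs between the media and so removes part of their contrast, and 3040 in the fit of all 12 arrays. It ran from 3278 to 4997 when 1 array was left out. It was within 1.5 times in the other alternatives, from 3905 when all probe sets of a gene were averaged to 5085 after another quantile normalization and 5635 when every probe set was tested. The replicate numbers did not pair the samples (correlations of deviations 0.09, -0.188 and 0.0112), and a replicate block gave 4508 genes. For the difference between lines the count of 1281 was 3113 with array weights, 757 with the replicate block, 535 without H9 unconditioned arrays 2 and 3 together, and 512 to 3281 without 1 array. MT1G was at -0.01 in HSF1 and at -0.19 for the difference between lines without probe sets that can match several genes, an alternative chosen after seeing the data, and HK2 was at -0.17 averaged over its probe sets. The causes were not tested. Of 136 named genes past the threshold in HSF1 118 stayed past it in every alternative that tested them. With the ACTB covariate 16 lost their call, and 7 did so in another alternative. Signal near background limits values below a log2 level of 5, and 3 arrays a group limit the precision.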

Other observations

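Some further gene groups, chosen after their values were seen, held changes in HSF1 cells that the lists did not cover. Of 5 measured Iroquois homeobox genes, which pattern the neural plate, heart and limb, 4 passed upward. Over all tested genes 13.9% rose, and since the family was picked by its values this count is a description only. IRX1 was at 7.01, 7.14 and 6.99 in unconditioned and at 7.93, 8.89 and 8.84 in conditioned medium (1.51, SE 0.182), IRX2 rose by 1.10 and IRX3 by 0.94. IRX5 started below the filter of 5 (4.66 to 4.90) and entered the test through its conditioned level. Its difference of 0.75 therefore gives no exact fold, and it adds little to the count of rises. IRX4 differed by -0.10 (adjusted p = 0.484). With the ACTB covariate the calls of IRX1 and IRX5 ended (adjusted p = 0.0858 and 0.198), and IRX2 was at 0.60 averaged over its probe sets. The caveola genes CAV2 and CAVIN1 rose by 0.97 and 0.37 beside CAV1, and CAV2 lost its call with the covariate (adjusted p = 0.05). ANXA2 and S100A10, the subunits of a calcium-dependent complex at the inner plasma membrane, rose by 1.08 and 0.69.

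CYP1B1 and TIPARP, which the aryl hydrocarbon receptor induces, fell by 1.18 and 1.11 in HSF1 and by 1.10 and 1.25 in H9. TIPARP was at 9.12, 9.21 and 9.10 and then at 7.99, 8.07 and 8.03, with no overlap. CYP1A1 and AHRR, other targets of the receptor, differed by -0.28 and -0.24 and did not pass (adjusted p = 0.0652 and 0.109). Of the other granins and granule genes looked at, SCG3 was at -0.68, CHGB at -0.39 and SCG2 at -0.38. SCG2 ended below the filter of 5 (mean 4.79) and entered the test through its unconditioned level. CHGB lost its call with the covariate (adjusted p = 0.201), and SCG2 lost its call with the covariate and without replicate 2 or 3 of conditioned medium. Other changes of at least 2-fold were those of the protocadherin PCDH10 (1.77, and 0.82 averaged over its probe sets), STOX2 (1.70, and 1.11 averaged), the potassium channel KCNJ2 (-1.60), the pattern recognition protein PTX3 (-1.60) and the phosphodiesterase PDE4B (-1.52).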
